A study of Mus musculus with 9 samples.

Results

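Genes that developing T cells are known to express were measured in RNA from sorted epithelial cells of the mouse thymus (TEC), on which thymocytes develop and are selected. The set named 29 genes by symbol and was chosen with earlier results of these data known. Of the 29 genes, 22 had a row among the 15080 genes of the count table. Cd3e, Rag2, Trbc1, Trbc2, Trac, Cd28 and Ccr9 were not analysed here. The TEC came from enzymatically dissociated thymi of young male wild-type mice, 10 days after an injection into the thymus. In the rAREG group, 5 libraries, the injection held 1 µg of recombinant amphiregulin, a ligand of the EGF receptor. In the vehicle group, 4 libraries, it held PBS. RNA molecules were counted at their 3′ ends by unique molecular identifiers (UMIs) in bulk MARS-seq libraries. Since the labels do not tie libraries to separate mice, the spread behind every p-value is that among these libraries and may be technical.

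Thymocytes pass from cells with neither coreceptor, which rearrange the T cell receptor beta chain and test it with the pre-T alpha chain, to cells with both CD4 and CD8, and then to cells that keep a single coreceptor. They develop in close contact with TEC, and cortical TEC can enclose whole thymocytes as nurse complexes. Medullary TEC are also known to transcribe at low levels many genes of other tissues. The tables hold no measure of which cell an RNA molecule came from, and in bulk RNA fewer thymocytes and less RNA per thymocyte cannot be told apart.

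The libraries held 1523246 to 2159115 UMI counts, and 122 of 11636 tested genes, 1.05%, passed the test between groups (edgeR's quasi-likelihood test, Benjamini-Hochberg adjusted p under 0.05). Epithelial identity genes, keratins and Foxn1 among them, summed to 8552 to 9300 CPM (UMI counts adjusted for the size of each library) in rAREG and 8612 to 9230 CPM in vehicle, so the defining markers of the labelled cell type were present in all 9 libraries. A count of 3, the limit that a count of 0 allows, was worth 1.39 to 1.94 CPM. Such limits and the counting intervals below cover counting error only.

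Thymocyte genes were measurable in every library, at low levels. The 22 genes together gave 404, 439, 499, 500 and 678 UMI counts in rAREG replicates 1 to 5, and 408, 447, 397 and 549 in vehicle replicates 1 to 4. As a share of all counts this was 0.0231% to 0.0356% in rAREG and 0.0187% to 0.0294% in vehicle; the exact Clopper-Pearson 95% intervals of the highest library, rAREG replicate 5, were 0.0329% to 0.0384%, and those of the lowest, vehicle replicate 3, 0.0169% to 0.0207%. The summed level was 267 ± 52.1 CPM in rAREG (SD, n = 5) and 237 ± 52.8 CPM in vehicle (SD, n = 4). The groups overlapped, and the difference between their means was smaller than the SD of either group.

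**Figure D1:**
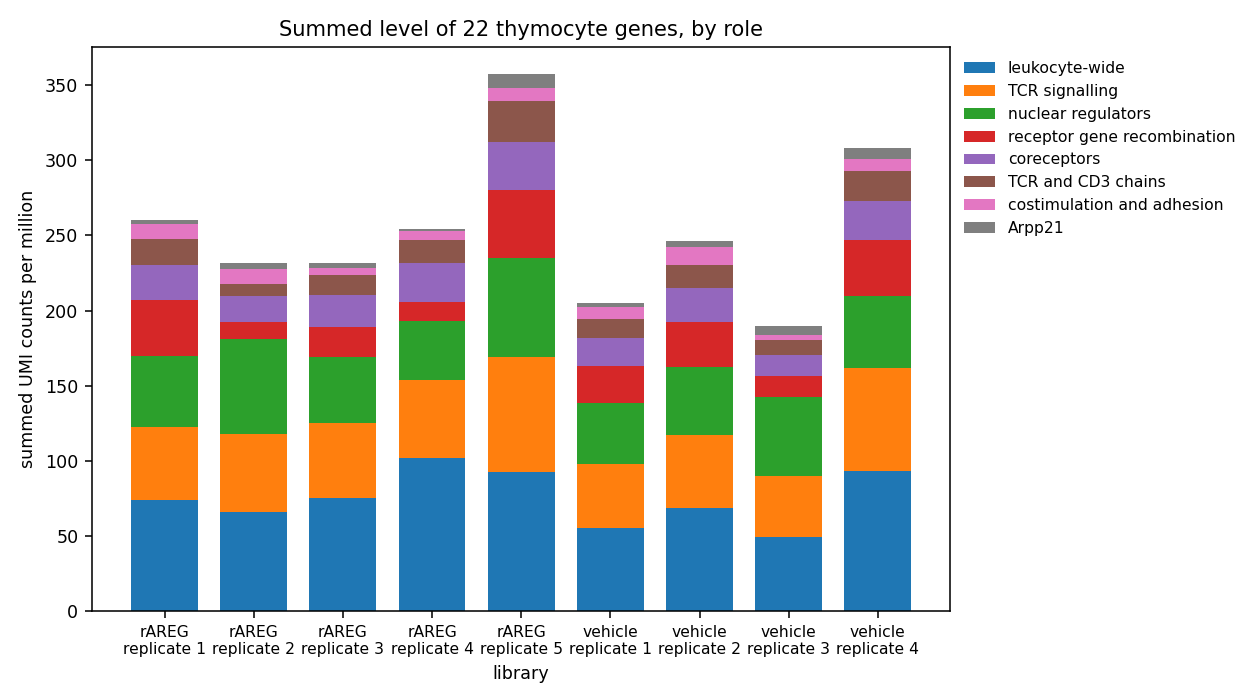
Summed CPM of the 22 thymocyte genes in each library (vertical axis; 5 rAREG libraries left, 4 vehicle libraries right), stacked by role. rAREG replicate 5 (357 CPM) and vehicle replicate 4 (308 CPM) stand highest, and the other 7 libraries lie between 190 and 261 CPM.

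No thymocyte gene passed the test. Of the 22, 10 had enough counts to be tested and 0 passed, against 1.05% of all tested genes. None of the 10 had an unadjusted p under 0.05, against 13.3% of all tested genes. Their median log2 fold change of rAREG over vehicle was 0.17, beside −0.0054 for all genes tested, with 7 positive and 3 negative. DESeq2 called 0 of the 8 thymocyte genes that it gave an adjusted p. Of the 10 genes, Cd3d and Ptprc got none. Ptcra alone had an unadjusted p under 0.05 in DESeq2 (DESeq2, unadjusted p = 0.011), and it also got no adjusted p. The 12 genes outside the 10 had counts below the low-count filter. In a fit without that filter, 0 of the 22 passed (0.855% of 15080 genes did), and Ptcra alone had an unadjusted p under 0.05, against 11.9% of all genes. In the authors' deposited table, 0 of the 22 had an adjusted p under 0.05, and the smallest was 0.28.

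The promoters of 4 thymocyte genes described below are given first. Ptcra was the single thymocyte gene whose groups did not overlap, Cd3g and Cd3d are head-to-head neighbours whose starts lie 1355 bases apart, and Dntt had the widest within-group variance relative to counting. Each run covers the 100 bases before and the first 30 bases from the RefSeq start on GRCm38.p6, 5′ to 3′ on the gene's strand, with capitals marking the E-box letters CAGCTG or the related form CAGGTG, which reads CACCTG on the other strand.
Ptcra, chr17:46763683-46763812, minus strand: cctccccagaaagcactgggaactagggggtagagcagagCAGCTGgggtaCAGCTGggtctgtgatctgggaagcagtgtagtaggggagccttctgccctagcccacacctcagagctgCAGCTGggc
Cd3g, chr9:44980402-44980531, minus strand: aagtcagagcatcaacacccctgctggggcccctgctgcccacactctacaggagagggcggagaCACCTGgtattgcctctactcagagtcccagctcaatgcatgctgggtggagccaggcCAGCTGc
Cd3d, chr9:44981686-44981815, plus strand: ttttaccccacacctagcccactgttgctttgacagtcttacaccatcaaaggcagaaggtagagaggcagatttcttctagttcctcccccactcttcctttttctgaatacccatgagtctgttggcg
Dntt, chr19:41029175-41029304, plus strand: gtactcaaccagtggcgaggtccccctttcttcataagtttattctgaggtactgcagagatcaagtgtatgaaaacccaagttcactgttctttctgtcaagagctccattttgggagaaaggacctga

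E-boxes are the letters that E proteins, basic helix-loop-helix factors of early T cells, are known to bind. CAGCTG reads the same on both strands, and both strands were searched. The Ptcra window held CAGCTG 3 times, starting 60 and 49 bases before the start and 21 bases after it. Such repeats were not particular to Ptcra, since an Arpp21 window and a Satb1 window each held CAGCTG 2 times. The groups of Arpp21 and Satb1 overlapped, with log2 fold changes of −0.26 and −0.023 in the fit without a filter. Of 32851 promoter windows of 130 bases, 7.88% held CAGCTG and 0.490% held it 2 or more times, and 16.2% held any of the 3 forms. Among 37 windows of the 18 thymocyte genes with one, 7 held CAGCTG and 14 held any form. Several genes had more than a single window, Arpp21 and Satb1 the most, and some of these windows overlapped. The counts are therefore of windows, not of separate genes. The Cd3d and Dntt windows held none of these letters. A match describes the sequence and is no evidence of binding, and 3′-end counts do not show which start site was used.

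Among the chains of the receptor complex, Ptcra encodes pre-T alpha, the partner of the beta chain before an alpha chain exists. Ptcra (chromosome 17, 46755663 to 46763712, GRCm38) had 5, 5, 5, 12 and 8 UMI counts in rAREG replicates 1 to 5, and 2, 2, 1 and 3 in vehicle replicates 1 to 4. These were 3.23, 2.64, 2.32, 6.10 and 4.22 CPM in rAREG and 1.01, 1.10, 0.477 and 1.68 CPM in vehicle. Of the 22 thymocyte genes 1 had groups apart from each other, beside 4.34% of the 15080 genes in the table, and of the 10 tested ones 0 did, beside 4.92% of tested genes. Every rAREG library was above every vehicle library, as in 2.23% of all genes, while every vehicle library was at or below 3 counts. Pooled over libraries, 35 counts in rAREG against 8 in vehicle gave a ratio of 3.55, with an exact 95% counting interval of 1.62 to 8.86 that holds no spread between libraries. In the fit without a filter the log2 fold change was 1.76 ± 0.576 (SE; edgeR, adjusted p = 0.17), so the difference failed the correction. The authors' deposited table gave Ptcra a log2 fold change of −1.82 for PBS over AREG, the same direction, with an adjusted p of 0.28. The lincRNA gene Gm26904 spans Ptcra on the opposite strand, and the sources used here do not say whether reads were counted by strand.

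The CD3 chains carry the receptor's signal into the cell. Cd3d (chromosome 9, 44981786 to 44987339) stood at 6.45, 3.69, 8.35, 5.60 and 11.1 CPM in rAREG replicates 1 to 5, and at 9.06, 12.7, 7.64 and 12.3 CPM in vehicle replicates 1 to 4. Of the vehicle libraries 3 were above 4 of the 5 rAREG libraries, and replicate 3 lay within the rAREG range, so the groups overlapped. Its log2 fold change was −0.55 ± 0.306 (SE; 95% interval −1.19 to 0.090; edgeR, adjusted p = 0.46). Cd3g (chromosome 9, 44969572 to 44980431) was under the filter, with 12, 3, 6, 6 and 23 counts in rAREG and 6, 3, 4 and 10 in vehicle. rAREG replicate 5 alone held 23 of its 73 counts, and the fit without a filter put it at 0.81 ± 0.550 (edgeR, adjusted p = 0.60). The neighbours thus had estimates of opposite sign, each with a 95% interval that held 0; the difference between them was not tested.

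The coreceptors CD4 and CD8 bind MHC class II and class I beside the receptor. Cd8b1 (chromosome 6, 71322788 to 71337494), the CD8 beta chain, measured 10.3, 4.75, 11.1, 12.7 and 19.0 CPM in rAREG replicates 1 to 5, and 9.56, 9.91, 6.21 and 12.3 CPM in vehicle replicates 1 to 4. rAREG replicate 5 was highest and rAREG replicate 2 lowest, so the rAREG range enclosed the whole vehicle range (log2 fold change 0.30 ± 0.316; edgeR, adjusted p = 0.74). Without rAREG replicate 5 the Cd8b1 estimate was 0.056, without vehicle replicate 3 it was 0.14, and without rAREG replicate 2 or vehicle replicate 4 it was 0.50 or 0.45. Cd4 (chromosome 6, 124864692 to 124888221) was the steadiest of the 3, at 9.03, 10.5, 7.42, 11.7 and 10.5 CPM in rAREG and 7.55, 5.50, 7.16 and 11.8 CPM in vehicle. Its groups overlapped (log2 fold change 0.30 ± 0.277; edgeR, adjusted p = 0.69), and its variance within groups was 1.02 times that of counting alone. Without vehicle replicate 4 the Cd4 estimate was 0.54, and without vehicle replicate 2 it was 0.17. Cd8a, the CD8 alpha chain, had 4 to 6 counts in the rAREG libraries, and in vehicle 1 to 4 counts in 3 libraries and 13 in replicate 2.

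Dntt and Rag1 act in receptor gene rearrangement: RAG1 is a subunit of the recombinase that cuts the gene segments, and Dntt encodes terminal deoxynucleotidyl transferase, which adds bases at their joints. Dntt (chromosome 19, 41029275 to 41059525) had 31.6, 7.91, 16.2, 10.2 and 36.4 CPM in rAREG replicates 1 to 5, and 18.1, 25.9, 10.5 and 32.0 CPM in vehicle replicates 1 to 4. It spread 4.60-fold from rAREG replicate 2, with 15 counts, to rAREG replicate 5, with 69. The 95% counting intervals of these libraries, 4.43 to 13.0 CPM and 28.3 to 46.0 CPM, did not meet. Its variance within groups was 12.2 times that of counting alone, the widest of the 22 genes. The groups overlapped almost wholly, and the 95% interval of its log2 fold change, −1.26 to 1.09 around −0.085, left more than 2-fold either way within the error (edgeR, adjusted p = 0.97). Rag1 stood at 5.81, 3.69, 3.71, 2.54 and 8.96 CPM in rAREG and 6.04, 4.40, 3.82 and 5.05 CPM in vehicle, again highest in rAREG replicate 5. Rag1 lies inside the annotated gene B230118H07Rik on the same strand, so counts at its 3′ end are uncertain for that gene alone.

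**Figure D2:**
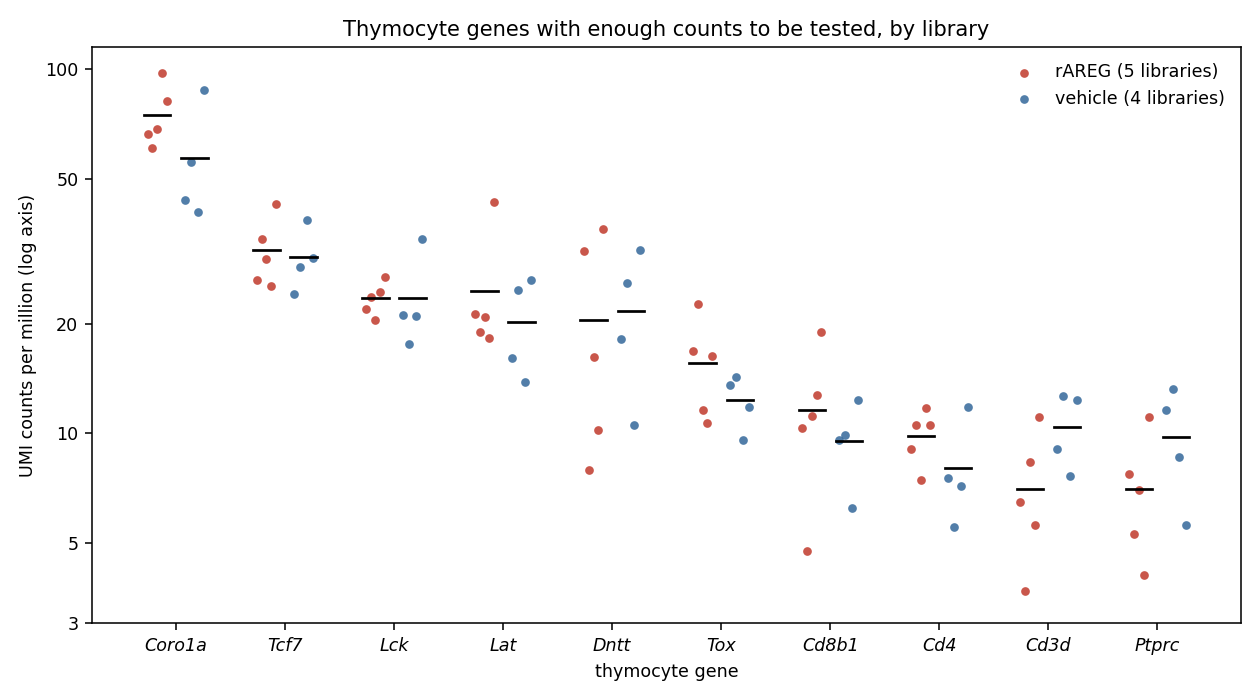
CPM (log axis) of the 10 tested thymocyte genes, with 5 rAREG libraries as red points left of 4 vehicle libraries as blue points and the group mean as a black bar. The groups overlap for all 10 genes, and Dntt spreads widest, from 7.91 to 36.4 CPM.

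Among the genes that relay the receptor's signal, Lck encodes the kinase that phosphorylates the CD3 chains. Lck (chromosome 4, 129548344 to 129573641) stood at 21.9, 23.7, 20.4, 24.4 and 26.9 CPM in rAREG, and at 21.1, 17.6, 21.0 and 34.2 CPM in vehicle. Vehicle replicate 4, at 34.2 CPM, was the highest library, and the other 8 lay between 17.6 and 26.9 CPM. The 95% interval of its log2 fold change, −0.40 to 0.40, was among the narrower ones (edgeR, adjusted p = 0.99). Lat, the scaffold on which that signal assembles (chromosome 7, 126363824 to 126369570), had 21.3, 19.0, 20.9, 18.3 and 43.2 CPM in rAREG, and 16.1, 24.8, 13.8 and 26.4 CPM in vehicle. The 82 counts of rAREG replicate 5, with a 95% counting interval of 34.4 to 53.6 CPM, stood apart from the 33 to 45 counts of the other 4 rAREG libraries. Its log2 fold change was 0.29 ± 0.277 (SE; edgeR, adjusted p = 0.71), and −0.011 without rAREG replicate 5, 0.14 without vehicle replicate 3 and 0.44 without vehicle replicate 4. Zap70, the kinase recruited to phosphorylated CD3 chains, had 2 to 12 counts in rAREG and 1 to 7 in vehicle; Themis, needed for positive selection, had 2 to 10 in rAREG and 1 to 7 in vehicle; and Cd5, a negative regulator of the signal, had 0 to 10 in rAREG and 2 to 5 in vehicle.

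The nuclear regulators include Tcf7, which encodes the T-lineage factor TCF1. Tcf7 (chromosome 11, 52252371 to 52283014) stood at 26.4, 34.3, 30.1, 25.4 and 42.7 CPM in rAREG, and at 24.2, 28.6, 38.7 and 30.3 CPM in vehicle. Apart from rAREG replicate 5 the rAREG values lay within the vehicle range, and the log2 fold change was 0.063 ± 0.179 (SE; 95% interval −0.31 to 0.44; edgeR, adjusted p = 0.92). Tox, needed for the CD4 lineage, averaged 15.6 ± 4.80 CPM in rAREG (SD, n = 5) and 12.3 ± 2.12 CPM in vehicle (SD, n = 4; log2 fold change 0.34 ± 0.245; edgeR, adjusted p = 0.58), and without rAREG replicate 2 the Tox estimate was 0.16. Satb1, a chromatin organiser, and Bcl11b, a T-lineage commitment factor, held only 33 and 37 counts over the 9 libraries.

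Coro1a and Ptprc are expressed by leukocytes at large, and their estimates had opposite signs. Coro1a (chromosome 7, 126699773 to 126707787), an actin regulator, had the highest CPM of the 22 genes, on a scale of captured 3′ ends not divided by gene length, and stood at the 82.3rd percentile of all genes by mean CPM. It had 66.4, 60.7, 68.6, 97.7 and 81.7 CPM in rAREG replicates 1 to 5, and 43.8, 55.6, 40.6 and 88.0 CPM in vehicle replicates 1 to 4. Without vehicle replicate 4 the groups would not have overlapped, since the other 3 vehicle libraries lay below every rAREG library. The log2 fold change was 0.41 ± 0.220 (SE; edgeR, adjusted p = 0.46), and without vehicle replicate 4 it was 0.70 and passed (edgeR, adjusted p = 0.036), in a fit that called 1.92% of genes. The 3′ end of Coro1a overlaps that of Bola2, on the opposite strand, by 26 bases. Bola2 averaged 215 ± 20.2 CPM in rAREG (SD, n = 5) and 219 ± 9.62 CPM in vehicle (SD, n = 4). Both genes were highest in rAREG replicate 4, Bola2 at 250 CPM. In vehicle replicate 3, where Coro1a was lowest, Bola2 was at 229 CPM, the highest of its group. The part of Bola2 in the Coro1a counts was not tested. Ptprc, which encodes CD45 (chromosome 1, 138062861 to 138175708), had 7.74, 5.27, 6.96, 4.07 and 11.1 CPM in rAREG, and 11.6, 13.2, 8.59 and 5.61 CPM in vehicle. Its higher values lay mostly in vehicle, with rAREG replicate 5 and vehicle replicate 4 as the exceptions (log2 fold change −0.48 ± 0.321; edgeR, adjusted p = 0.55), and without vehicle replicate 2 the Ptprc estimate was −0.30.

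Among the remaining genes, Cd2, an adhesion receptor, had 3 to 10 counts in rAREG and 1 to 15 in vehicle. Cd27, a costimulatory receptor of the TNF receptor family, had 6 to 12 counts in rAREG and 3 to 14 in vehicle. Arpp21, which encodes an RNA-binding protein, had 2 to 18 counts in rAREG and 6 to 12 in vehicle. None of these 3 showed groups apart from each other, and their fitted log2 fold changes without a filter lay between −0.26 and 0.13. The annotated 3′ ends of Themis, Tcf7 and Cd27 are also overlapped by other genes, so their counts are uncertain in the same way as those of Ptcra and Rag1.

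**Figure D3:**
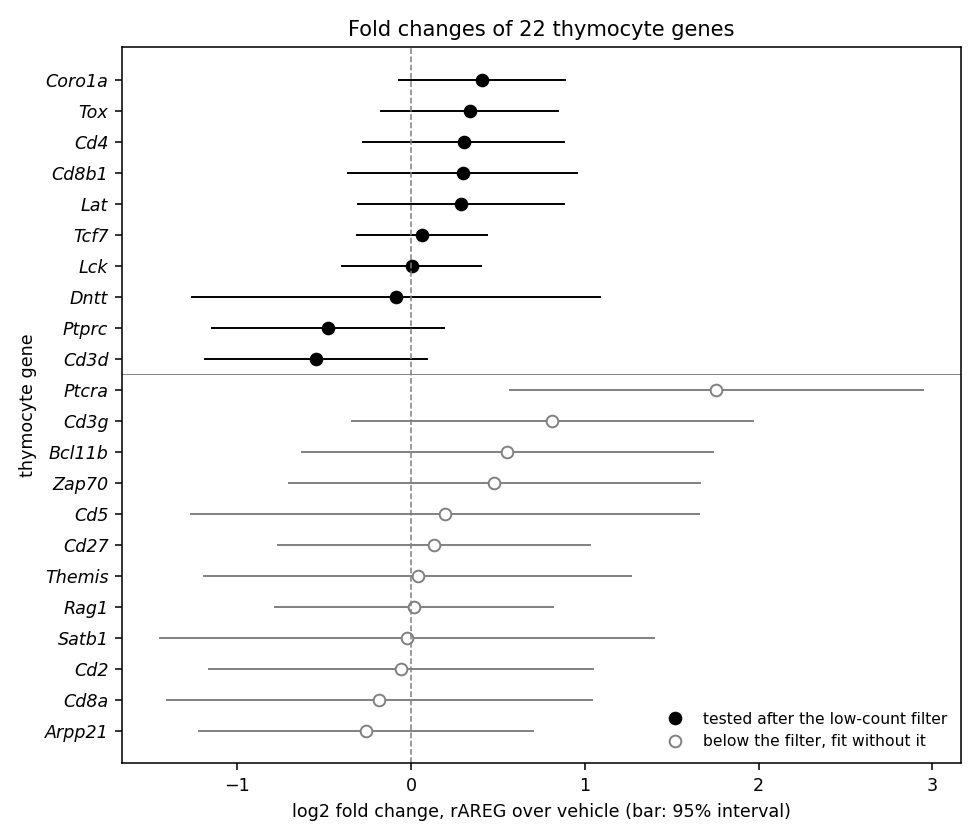
Log2 fold changes of rAREG over vehicle (horizontal axis) with 95% intervals for the 22 thymocyte genes, filled for the 10 tested genes and open for the 12 below the low-count filter, which come from the fit without it. All intervals of the tested genes cross 0, and of the open ones only that of Ptcra, 0.57 to 2.95, does not.

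Thymocyte genes also differed between libraries of the same group. rAREG replicate 5 was the highest of the 9 libraries for 8 of the 22 genes, namely Cd3g, Cd8b1, Rag1, Dntt, Tcf7, Arpp21, Lat and Bcl11b, and the lowest for none. Grouped by role, it was highest in 6 of 8 sums, but these sums regroup the same 22 genes, and 1 of them is Arpp21 alone. How often this library was the highest among all genes was not counted, so the 8 genes are not shown to be unusual. Vehicle replicate 2 was highest for 4 genes, and vehicle replicate 3 was lowest for 6. rAREG replicate 5 and vehicle replicate 4 had the highest summed levels of their groups, 357 and 308 CPM, and both carry library number 6 in the sample descriptions. The labels do not say what that number stands for. Without both libraries the summed level ranged from 231 to 261 CPM in rAREG and from 190 to 246 CPM in vehicle, still overlapping, and 0 of 10 tested genes passed; Ptprc was then at −0.88 and Coro1a at 0.67 in log2 fold change (edgeR, adjusted p = 0.17 and 0.057).

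**Figure D4:**
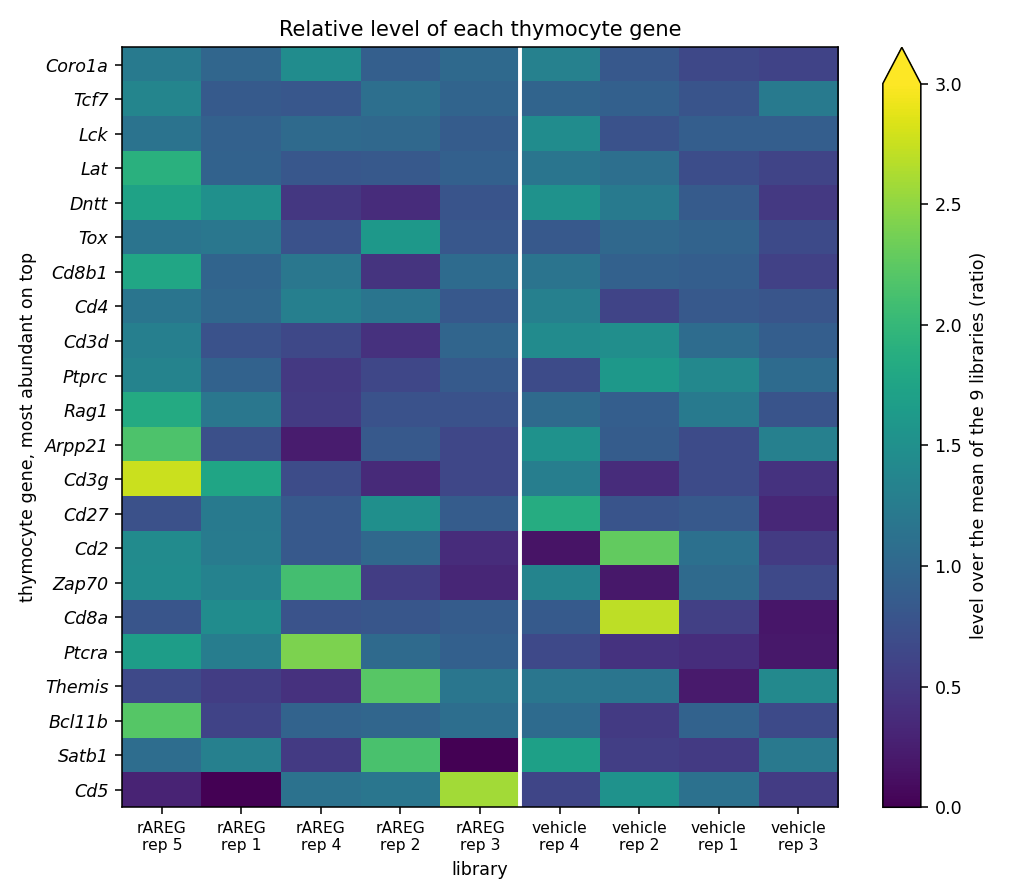
Level of each thymocyte gene in each library divided by the gene's mean over the 9 libraries (colour, 0 to 3; the highest ratio was 2.76), with the 5 rAREG libraries left and the 4 vehicle libraries right, each ordered by summed level. The column of rAREG replicate 5 is bright for Cd3g, Arpp21, Bcl11b, Lat, Rag1, Cd8b1 and Dntt; the lower rows rest on few counts.

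The thymocyte genes did not keep fixed proportions across libraries. Dntt made up 12.1%, 3.42%, 7.01%, 4.00% and 10.2% of the thymocyte gene counts in rAREG replicates 1 to 5, and 8.82%, 10.5%, 5.54% and 10.4% in vehicle replicates 1 to 4. In rAREG replicate 2 its exact 95% interval was 1.92% to 5.57%, and in rAREG replicate 1 it was 9.11% to 15.7%. Coro1a made up 22.9% to 38.4% in rAREG, highest in replicate 4, where Dntt was low, and 21.3% to 28.6% in vehicle. Without Coro1a the summed level was 192 ± 48.8 CPM in rAREG (SD, n = 5) and 180 ± 31.6 CPM in vehicle (SD, n = 4). Over the 13 genes in the table least used by other cell types it was 143 ± 40.8 CPM in rAREG and 134 ± 27.2 CPM in vehicle.

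Other genes known from T cells were counted over comparison lists, and the cells that their RNA came from were not measured. Id3 and Klf2, below, each averaged more than the 22 thymocyte genes together, which averaged 267 CPM in rAREG and 237 CPM in vehicle. The part of thymocytes in these lists was not tested. Of the list of further receptor signalling genes 13 of 19 were in the table, and of the 5 tested 0 rose, 0 fell and 5 did not pass (median log2 fold change −0.12); its most abundant genes were Ptpn6 and Ptpn22, phosphatase genes, at 96.9 and 73.7 CPM in rAREG and 109 and 74.6 CPM in vehicle. Of 15 tested T-lineage regulators 1 rose and 14 did not pass, while 1.05% of all tested genes passed. Among the 14 was the most abundant, Id3, an inhibitor of E proteins, at 1002 CPM in rAREG and 1191 CPM in vehicle. Sox4, also among the 14, was next, at 129 CPM in rAREG and 125 CPM in vehicle. The gene that rose was Runx3, a Runt-family factor of the CD8 lineage, at 44.5 ± 10.5 CPM in rAREG (SD, n = 5) and 25.7 ± 6.26 CPM in vehicle (SD, n = 4; edgeR, adjusted p = 0.049). It passed in 2 of 9 fits that left out 1 library, those without rAREG replicate 3 or 5 (edgeR, adjusted p = 0.026 to 0.20 over the 9), and with unscaled totals its adjusted p was 0.054 (edgeR). Genes of the early coreceptor-negative stage (7 tested, median 0.21) and of the mature single-coreceptor stage (5 tested, median 0.23) did not pass. The most abundant early-stage genes were Notch3, a Notch receptor gene, at 39.5 ± 11.6 CPM in rAREG (SD, n = 5) and 32.6 ± 5.00 CPM in vehicle (SD, n = 4), and above it Hes1, a Notch target, at 191 ± 37.9 CPM in rAREG (SD, n = 5) and 184 ± 28.9 CPM in vehicle (SD, n = 4). Of the 5 mature-stage genes tested 4 had positive and 1 a negative log2 fold change, the negative one being the most abundant, Klf2, a factor of thymocyte exit, at 345 ± 113 CPM in rAREG (SD, n = 5) and 491 ± 101 CPM in vehicle (SD, n = 4), highest in rAREG replicate 5 and vehicle replicate 4 of their groups (log2 fold change −0.51; edgeR, adjusted p = 0.37). Next in abundance was Ccr7, a chemokine receptor gene of mature thymocytes, at 45.0 ± 11.5 CPM in rAREG (SD, n = 5) and 29.0 ± 7.96 CPM in vehicle (SD, n = 4), with an estimate of the other sign (log2 fold change 0.63; edgeR, unadjusted p = 0.0060, adjusted p = 0.15).

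Markers of other cells that a sort could hold were measured beside the thymocyte genes. Leukocyte-wide genes other than Coro1a and Ptprc summed to 4089 to 5052 CPM in rAREG and 2919 to 3872 CPM in vehicle, without overlap. Of the 13 tested 0 passed, with 8 positive and 5 negative log2 fold changes. The most abundant were Srgn, for the granule proteoglycan serglycin, and Laptm5, a lysosomal protein gene. They stood at 2523 and 787 CPM in rAREG and 1900 and 578 CPM in vehicle, and made up most of the sum. Of the 18 genes in the table only these 2 had groups that did not overlap, beside 4.34% of all genes. None of the 18 was at 0 in any library. B cell genes, 7 of 14 in the table, summed to 241 to 274 CPM in rAREG and 163 to 220 CPM in vehicle, also without overlap; Blnk, an adaptor gene, made up most of this, at 203 CPM in rAREG and 159 CPM in vehicle, followed by Cd79b, a B cell receptor chain, at 31.2 CPM in rAREG and 27.1 CPM in vehicle, and 0 of 3 tested passed. Gamma-delta T and NK cell genes, 9 of 17 in the table, summed to 530 to 710 CPM in rAREG and 290 to 476 CPM in vehicle. Most of that sum was Ccl5, a chemokine gene, which rose to 560 ± 64.9 CPM in rAREG (SD, n = 5), against 348 ± 76.6 CPM in vehicle (SD, n = 4), with an edgeR adjusted p of 0.019. It passed in 5 of 9 fits that left out 1 library (edgeR, adjusted p = 0.0055 to 0.086 over the 9). Tbx21, which encodes T-bet, was next in abundance, at 17.3 CPM in rAREG and 13.6 CPM in vehicle, and did not pass. The summed thymocyte genes overlapped between the groups, while these 3 sums did not; the part of these cells in either result was not tested.

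Myeloid and dendritic genes summed to 517 to 667 CPM in rAREG and 468 to 598 CPM in vehicle, and 0 of 14 tested passed; Lyz2, for lysozyme, and Ly6c2, a monocyte surface protein gene, led with 314 and 53.8 CPM in rAREG and 260 and 52.3 CPM in vehicle. Erythroid genes were near the counting limit, at 6.03 to 12.7 CPM in rAREG and 3.52 to 10.5 CPM in vehicle, and 0 of 1 tested passed; Alas2, of heme synthesis, led with 4.64 to 10.0 CPM in rAREG and 3.02 to 10.5 CPM in vehicle, and Slc4a1, an erythrocyte anion exchanger gene, had 0.645 to 3.56 CPM in rAREG and 0 to 1.91 CPM in vehicle. Fibroblast and endothelial genes summed to 245 to 552 CPM in rAREG and 286 to 917 CPM in vehicle, with 0 of 7 tested past the threshold, and rAREG replicate 5 was the highest of its group while vehicle replicate 4 was the lowest of its own. Dcn, for decorin, and Col3a1, a collagen gene, led that list with 250 and 41.7 CPM in rAREG and 472 and 42.5 CPM in vehicle. Of the epithelial lists, 0 of 14 epithelial identity genes and 0 of 14 cortical TEC genes passed. The keratin genes Krt18 and Krt5 led the identity list with 2504 and 2329 CPM in rAREG and 2632 and 2173 CPM in vehicle, and Tbata and the chemokine gene Ccl25 led the cortical list with 1806 and 735 CPM in rAREG and 1617 and 591 CPM in vehicle. Of 11 tested medullary TEC genes 4 rose, Aire, Fezf2, Relb and Ccl19, while 1.05% of all tested genes passed. The list was chosen with earlier results of these data known, so its share is not an independent result. These 4 genes passed in 2, 2, 2 and 5 of 9 fits that left out 1 library. Relb did not pass without both libraries numbered 6 (edgeR, adjusted p = 0.057). H2-Ab1 and Cd74, of MHC class II presentation, led the medullary list with 10820 and 10765 CPM in rAREG and 10059 and 10028 CPM in vehicle. Cortical TEC genes summed to 3098, 3197, 4517, 4215 and 3294 CPM in rAREG replicates 1 to 5, and 4156, 3379, 3303 and 3360 CPM in vehicle replicates 1 to 4. The libraries highest for thymocyte genes were not the highest for cortical TEC genes, and a relation between these sums was not tested.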

How the data were processed

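TEC were sorted into lysis buffer and 3′-end libraries were made by MARS-seq, per the labels' protocols. Tools listed in the submitters' processing notes, without roles, are STAR 2.5.2b, HTSeq, cutadapt, bcl2fastq and DESeq2, and the build is mm10. The authors deposited raw UMI counts per gene, which were tested here, and their own table of log2 fold changes (PBS over AREG) and p-values, which are quoted as theirs. A further 18 deposited per-sample columns, other versions of the same libraries, were not used.

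The test was edgeR 4.0.16's robust quasi-likelihood F test in R 4.3.3, with TMM scaling and low counts removed by filterByExpr, over 11636 genes; 3444 were left out by the filter. Dividing a log2 fold change by the root of its F statistic gave the SE. CPM used TMM-scaled totals of the tested genes. Variance over counting is the within-group chi-square of the counts per degree of freedom. The thymocyte genes and 13 comparison lists were chosen with earlier results of these data known, so no p was computed over them. From each list, the text took the 2 most abundant genes and those past the threshold. Alternatives were DESeq2 1.42.0, other scalings and filters, replicate numbers as a block, and leaving out each library. Positions come from GENCODE M21 (GRCm38, called mm10 in the notes), in which all 22 genes matched, and promoters from RefSeq (GRCm38.p6), in which 18 did. No library repeated another within counting noise: chi-square per degree of freedom was 2.58 or more for every pair.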

Additional observations from a re-analysis of the deposited data

Results flagged for a closer look

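In 5 of 76 groups of libraries checked over the thymocyte genes and the summed lists, 1 library stood apart from the rest of its group by Dixon's criterion, and chance marks about 1 group in 20. The summed level of thymocyte genes was 357 CPM in rAREG replicate 5, with the next library of that group at 261 CPM. Lat was at 43.2 CPM in rAREG replicate 5, with the next at 21.3 CPM. Cd8a was at 3.87 CPM in rAREG replicate 1, with the next at 2.32 CPM, and rests on 4 to 6 counts a library. The summed early coreceptor-negative stage list was at 399 CPM in rAREG replicate 1, with the next at 295 CPM. The summed cortical TEC list was at 4156 CPM in vehicle replicate 1, with the next at 3379 CPM.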

How the results depend on the processing

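Depth limits most of these genes: 12 of 22 were under the filter, and 9 had under 3 counts in some library. The number of thymocyte genes past the threshold was 0 under every alternative but 1: leaving out 1 library gave 0 to 1, the 1 being Coro1a without vehicle replicate 4 (0.70; edgeR, adjusted p = 0.036). Over all genes, 122 passed, 192 with DESeq2, 227 without both libraries numbered 6 (chosen after seeing the data), and 18 to 230 when 1 library was left out. The difference in log2 summed level, 0.18, ranged from 0.067 to 0.31 over those fits. Signs of genes near 0 turned; with 1 library left out, Lck reached 0.24, Dntt −0.40, Tcf7 0.21 and Lat 0.44 at the other end. Lck, at 0.0041, was at −0.00013 with no filter and −0.0048, −0.042, −0.042, −0.11 and −0.042 without rAREG replicates 4 and 5 and vehicle replicates 1, 2 and 3. Dntt, at −0.085, was at 0.12, 0.0013, 0.096, 0.020 and 0.17 without rAREG replicates 2, 3 and 4 and vehicle replicates 2 and 4. Tcf7, at 0.063, was at −0.059 and −0.035 without rAREG replicate 5 and vehicle replicate 1, and −0.065 without both libraries numbered 6; Lat, at 0.29, was at −0.011 without rAREG replicate 5. In all, 19 of 180 values turned, none past the threshold.

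With replicate numbers of the titles as a block, 308 genes passed, and Cd8b1 was at 0.034, Lck at −0.034, Tcf7 at −0.067 and Lat at −0.00074; with library numbers as a block 165 passed, Dntt was at 0.054 and Aire no longer passed (edgeR, adjusted p = 0.0502). No thymocyte gene passed in either. With title numbers, 3 of the 10 tested had an unadjusted p under 0.05, as did 1744 of 11636 genes. These were Cd3d at −0.77, Ptprc at −0.67 and Coro1a at 0.39 (edgeR, unadjusted p = 0.036, 0.049 and 0.0086, adjusted p = 0.29, 0.33 and 0.14). With library numbers it was 1 of the 10, Coro1a at 0.33 (edgeR, unadjusted p = 0.042), beside 1552 of 11636 genes. Same-numbered libraries deviated together with correlations of −0.036 to 0.17, so the numbers were not taken as pairs, and not every library correlated best with its own number.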
